A study of Mus musculus with 40 samples.

Results

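A group of 8 genes of sulfur amino acid metabolism were followed across the livers of 40 mice: Mat1a, Gnmt, Bhmt, Ahcy, Cbs, Cth, Mpst and Nnmt. They were taken by gene symbol from a table of 17724 genes, and all 8 were present and above the filter on low values. Liver RNA was sequenced from C57BL/6NJ mice, in 8 groups of 5 formed by genotype, diet and sex. Wild-type mice (WT) were compared with mice that lack exon 3 of Ghr, the receptor gene for growth hormone, on both alleles (d3, written d3/d3 in the labels), which models a common human deletion of that exon. Food was freely available (ad libitum, AL) or cut to a 40% calorie restricted diet (CR) for 30 days from weaning at 30 days of age. The labels give an age of about 2 months at death, but their extraction protocol gives 28 to 34 days, and the age was not resolved here. The d3 line was expanded with sperm of d3/d3 males and oocytes of C57BL/6NJ females. Ghr itself averaged 11633 to 17084 normalized counts over the 8 groups, and a gene total does not show whether exon 3 is missing. No collection time, litter or sequencing batch is named in the labels.

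Methionine is activated by methionine adenosyltransferase to S-adenosylmethionine (SAM), the methyl donor of most methylation reactions, and after donation of the methyl group S-adenosylhomocysteine is split into homocysteine and adenosine. Homocysteine is either methylated back to methionine, with betaine or methyl folate as the donor, or passed through transsulfuration to cysteine, the precursor of glutathione and taurine. The transsulfuration enzymes and mercaptopyruvate sulfurtransferase also release hydrogen sulfide, and in mice the hepatic capacity for making this gas has been studied as part of the response to dietary restriction. The liver is the main site of methionine breakdown, and Mat1a, Gnmt and Bhmt are characteristic of hepatocytes.

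The promoter windows of Bhmt, Ahcy, Gnmt and Cbs are printed because 3 of these genes were lower under restriction when the 4 diet comparisons were averaged and Gnmt was the only member that did not pass that test. Each window runs from 250 bases before to 50 bases after the start annotated by RefSeq on GRCm38.p6 and is written on the gene's own strand, which was the minus strand in all 4. The windows are chr13:93637709-93638008 for Bhmt, chr2:155074448-155074747 for Ahcy, chr17:46729116-46729415 for Gnmt and chr17:31637156-31637455 for Cbs. Capitals mark matches, on either strand, to the nuclear receptor half-site AGGTCA, the E-box CACGTG and the CCAAT box, which is spelled CCAAT.
Bhmt: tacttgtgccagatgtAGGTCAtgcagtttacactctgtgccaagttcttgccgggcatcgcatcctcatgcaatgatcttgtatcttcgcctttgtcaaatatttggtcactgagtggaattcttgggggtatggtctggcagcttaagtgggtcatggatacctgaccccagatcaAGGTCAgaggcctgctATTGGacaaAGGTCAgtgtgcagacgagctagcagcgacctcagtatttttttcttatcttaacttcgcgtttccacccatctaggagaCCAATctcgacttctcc
Ahcy: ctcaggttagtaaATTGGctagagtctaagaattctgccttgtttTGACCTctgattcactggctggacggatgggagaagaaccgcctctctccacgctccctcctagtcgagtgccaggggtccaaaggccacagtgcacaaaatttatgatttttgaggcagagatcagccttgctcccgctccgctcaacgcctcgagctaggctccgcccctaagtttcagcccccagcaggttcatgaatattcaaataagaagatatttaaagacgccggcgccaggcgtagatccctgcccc
Gnmt: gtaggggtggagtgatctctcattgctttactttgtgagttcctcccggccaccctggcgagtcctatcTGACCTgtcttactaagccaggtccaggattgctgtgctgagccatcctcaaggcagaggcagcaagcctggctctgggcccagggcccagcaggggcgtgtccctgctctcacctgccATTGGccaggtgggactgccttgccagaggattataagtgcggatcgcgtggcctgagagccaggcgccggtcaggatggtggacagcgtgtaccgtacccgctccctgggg
Cbs: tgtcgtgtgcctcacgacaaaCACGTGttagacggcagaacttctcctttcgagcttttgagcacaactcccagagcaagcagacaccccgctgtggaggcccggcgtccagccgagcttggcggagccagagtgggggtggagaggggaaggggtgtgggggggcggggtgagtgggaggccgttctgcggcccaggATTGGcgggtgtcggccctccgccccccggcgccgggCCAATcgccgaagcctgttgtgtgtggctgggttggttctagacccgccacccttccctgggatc
The Bhmt window held 3 copies of AGGTCA, all on the gene's strand, at bases 17 to 22, 179 to 184 and 204 to 209, and 2 CCAAT boxes. At least 3 copies were found in 0.183% of 32851 mouse promoter windows of this length and at least 1 copy in 16.3%. The Ahcy and Gnmt windows each held 1 copy of AGGTCA on the opposite strand and 1 CCAAT box. The Cbs window held 1 CACGTG, present in 7.15% of windows, and 2 CCAAT boxes, of which at least 1 was present in 37.4%. No match overlapped another. The TATA box TATAAA (13.6% of windows), the D-box TTATGTAA (0.938%) and the ATF4 composite core TGATGCAA (0.895%) did not occur as these letters in any of the 4 windows. GC content was 48% in Bhmt, 52.7% in Ahcy, 62% in Gnmt and 66.7% in Cbs. A match is a string of letters and not a measured site. Mpst had 3 windows in the table, which are not shown and in which none of these strings was found. The table held 0 windows for Mat1a, Cth and Nnmt.

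The libraries held 21132490 to 44195300 recovered reads, so counting error on genes of this abundance was small next to the spread between mice. Levels are normalized counts, that is, reads per gene divided by a library factor. Hepatocyte markers (9 of 10 in the table) made up 6.75% to 14.1% of each library's signal, and none was at 0. Skeletal muscle markers (16 of 16) ranged from 0.00045% to 7.61% of the signal and were present in every group. The muscle level, the mean log2 value of these markers, was at least 8 in 17 libraries: 1 in WT AL males, 2 each in WT CR males, d3 AL males, WT AL females, WT CR females and d3 AL females, and 3 each in d3 CR males and d3 CR females. Counts of members called are therefore also given without these 17 libraries, and the levels, pathway lists and correlations are given with them only. In bulk tissue, fewer cells of a type and less RNA per cell cannot be told apart. Clock genes differed sharply with diet: Dbp, a circadian transcription factor, averaged 49.2 to 806 normalized counts in the 4 AL groups and 6428 to 7439 in the 4 CR groups, and Arntl, a core activator of the clock, 855 to 1141 and 19.8 to 83.4. Their part in the diet results was not tested. Among d3 mice of either sex, every AL liver had a lower running number in its sample title than any CR liver, so diet in d3 mice and the order of those numbers cannot be told apart.

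The first comparison asked how calorie restriction altered these genes. Under restriction the betaine-dependent methyltransferase gene Bhmt, the nicotinamide methyltransferase gene Nnmt and the SAM synthase gene Mat1a fell in WT males, WT females and d3 males. Cbs, the first enzyme gene of transsulfuration, fell in WT females and d3 males, and Mpst fell in WT females alone, a difference between groups that is tested further on. No member rose in any of the 4 comparisons. Averaged over the 4 comparisons, 7 of the 8 genes fell, with log2 changes from -1.61 for Bhmt to -0.24 for Mpst, and Gnmt did not pass the test at -0.07. Averaging was chosen after seeing the data. Tests were made with limma over 13776 genes with Benjamini-Hochberg adjustment at 0.05, and each log2 change, on values with a pseudocount of 1 added, is given with its standard error (SE).

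In WT males 3 members fell, where 11.4% of all genes tested were lower and 10.1% higher. In WT females 5 fell, against 7.11% lower and 4.56% higher among all genes. In d3 males 4 fell, against 10.5% lower and 9% higher. In d3 females 0 members passed, where 9.55% of all genes were lower and 8.33% higher. An unadjusted p under 0.05 was found there for 5 members and for 4146 of all 13776 genes. In the same comparison edgeR on the recovered reads called 1 member, Bhmt. The members' median log2 change was -0.65 in WT males, -0.69 in WT females, -0.65 in d3 males and -0.67 in d3 females, and the median of all genes tested lay between 0.02 and 0.04. For the averaged comparison 22.6% of all genes were lower and 23.2% higher. The 4 comparisons use different mice, 10 in each.

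**Figure D1:**
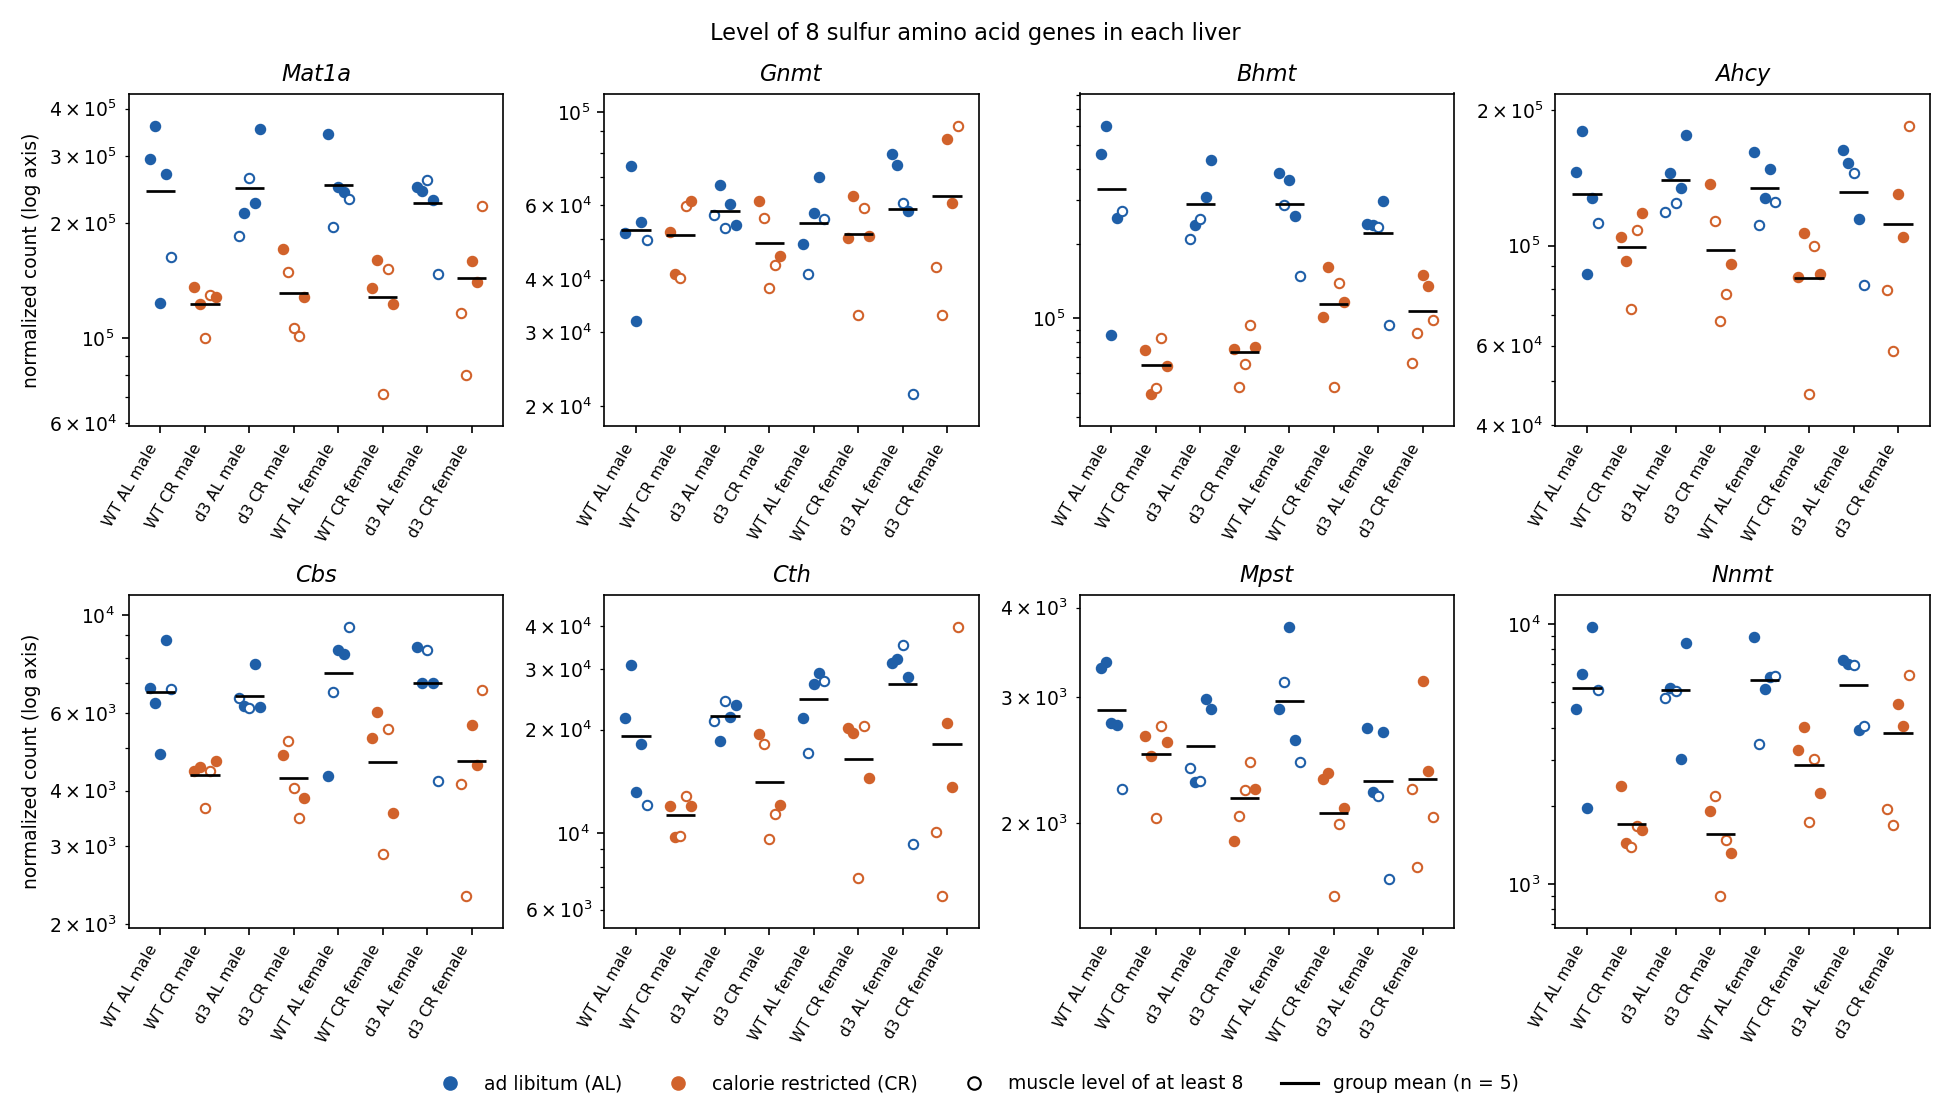
Normalized counts (log axis) of the 8 genes in each of the 40 livers by group, with 5 livers a group. Blue points are AL, orange points CR, open points mark a muscle level of 8 or more (17 libraries), and black bars are group means. Bhmt and Nnmt sit lowest in the CR males, where Bhmt means are 64766 and 72776, and Gnmt means stay between 48925 and 63104 in all 8 groups.

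Bhmt encodes betaine-homocysteine methyltransferase, which remakes methionine from homocysteine in liver (chromosome 13, 93616675 to 93637961, minus strand, GRCm38). In WT AL males it stood at 458772, 599178, 85632, 253563 and 270399 normalized counts in replicates 1 to 5, and in WT CR males at 74711, 49317, 52491, 82919 and 64392. Every WT CR male lay below every WT AL male, and the lowest AL male, replicate 3, was also the shallowest library. The means were 333509 ± 198802 and 64766 ± 14299 (SD, n = 5 each), 5.15-fold lower under CR, and the log2 change was -2.12 ± 0.37 (limma adjusted p = 6.85e-05). In d3 males the AL livers held 208214, 238151, 252107, 309487 and 437184 and the CR livers 75011, 52523, 65617, 94163 and 76565. These groups did not overlap either, and the log2 change was -1.97 ± 0.37 (limma adjusted p = 0.00019). In both male comparisons the fall held in each of 10 fits that left out 1 library. In WT females the AL livers held 384613, 286949, 361444, 258805 and 148480 and the CR livers 100856, 161435, 52994, 139104 and 116476. Only the fifth AL liver reached into the CR range, and the log2 change was -1.36 ± 0.37 (limma adjusted p = 0.0146). In d3 females the AL livers held 240019, 236944, 233746, 296487 and 94071 and the CR livers 66146, 87516, 149589, 134959 and 98107, so that 1 AL liver lay inside the CR range. The log2 change of -1.0 ± 0.37 did not pass (limma adjusted p = 0.0570). It passed without d3 AL female replicate 5 or without d3 CR female replicate 3.

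Mat1a encodes the liver form of methionine adenosyltransferase (chromosome 14, 41105035 to 41124412, plus strand). In WT males the AL livers held 295773, 360736, 124041, 269069 and 163498 normalized counts and the CR livers 135829, 122632, 100198, 129603 and 128103. The CR livers were tightly grouped and the lowest AL liver fell among them, and the log2 change was -0.88 ± 0.27 (limma adjusted p = 0.0163). In WT females the values were 342907, 195883, 249693, 241960 and 231713 under AL and 135288, 159988, 71274, 152121 and 122846 under CR, with no overlap. The log2 change was -1.01 ± 0.27 (limma adjusted p = 0.0121). In d3 males the values were 184866, 212914, 263744, 225963 and 353460 under AL and 171254, 148728, 106288, 101477 and 128103 under CR, also with no overlap. The log2 change was -0.91 ± 0.27 (limma adjusted p = 0.0142). In d3 females the mean was 226051 ± 45185 under AL and 143774 ± 53144 under CR (SD, n = 5 each), with 2 CR livers inside the AL range, and the log2 change of -0.71 ± 0.27 did not pass (limma adjusted p = 0.0640). In each of WT males, WT females and d3 males, Mat1a was called in 9 of 10 fits that left out 1 library.

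Gnmt encodes glycine N-methyltransferase, which uses surplus SAM to methylate glycine (chromosome 17, 46725664 to 46729168, minus strand). Its group means under AL were 52471 ± 15089 in WT males, 54622 ± 10740 in WT females, 58225 ± 5692 in d3 males and 58910 ± 22849 in d3 females, and under CR 50936 ± 9943, 51205 ± 11588, 48925 ± 9594 and 63104 ± 26157 in the same order (normalized counts, SD, n = 5 each). The diet groups overlapped in all 4 comparisons. The averaged log2 change was -0.07 with a 95% confidence interval from -0.35 to 0.21, so a fall as large as that of Mat1a lay outside the interval. The test of Gnmt against another member was not made. Ahcy encodes S-adenosylhomocysteine hydrolase (chromosome 2, 155059310 to 155074497, minus strand). In WT females its AL livers held 161525, 110905, 127571, 147816 and 124787 and its CR livers 85204, 106651, 46765, 99683 and 86266. These groups did not overlap, yet the log2 change of -0.71 ± 0.26 did not pass (limma adjusted p = 0.0660). It did not pass in the other 3 comparisons, with log2 changes from -0.55 to -0.31, and the averaged log2 change was -0.48 ± 0.13 (limma adjusted p = 0.00219).

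Cbs encodes cystathionine beta-synthase, which joins homocysteine to serine (chromosome 17, 31608894 to 31637238, minus strand). In WT males the AL livers held 6827, 6301, 4831, 8750 and 6810 normalized counts and the CR livers 4437, 4537, 3656, 4437 and 4668. The groups did not overlap, but the log2 change of -0.60 ± 0.23 just missed the threshold (limma adjusted p = 0.0531). In d3 males the values were 6489, 6204, 6160, 7756 and 6177 under AL and 4812, 5176, 4061, 3463 and 3861 under CR, again without overlap, and the log2 change was -0.63 ± 0.23 (limma adjusted p = 0.0474). In WT females the values were 4326, 6698, 8317, 8135 and 9381 under AL and 5264, 6032, 2879, 5502 and 3556 under CR. The first AL liver lay below 3 CR livers, and the log2 change was -0.67 ± 0.23 (limma adjusted p = 0.0480). In d3 females the mean was 7002 ± 1716 under AL and 4681 ± 1665 under CR (SD, n = 5 each), and the log2 change was -0.62 ± 0.23 (limma adjusted p = 0.0513). The 4 changes of Cbs, from -0.67 to -0.60, thus lay on both sides of the threshold, and its 2 calls were each kept in 3 or fewer of 10 fits that left out 1 library. Averaged over the 4 comparisons Cbs fell by 0.63 ± 0.11 on the log2 scale (limma adjusted p = 2.25e-05).

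Cth encodes cystathionine gamma-lyase, which releases cysteine and can make hydrogen sulfide (chromosome 3, 157894248 to 157925077, minus strand). Its group means in normalized counts, AL first and CR second, were 19224 ± 7602 and 11282 ± 1397 for WT males, 24569 ± 5063 and 16439 ± 5615 for WT females, 21885 ± 2221 and 14135 ± 4386 for d3 males, and 27216 ± 10318 and 18211 ± 13176 for d3 females (SD, n = 5 each). The diet groups overlapped in all 4 comparisons and none passed, with log2 changes from -0.72 to -0.65 and limma adjusted p from 0.16 to 0.248. In d3 females the log2 change ran from -1.08 to -0.43 when 1 library was left out, and it passed without AL replicate 5 or CR replicate 5 and was smallest without CR replicate 2. In WT females it was -0.38 without CR replicate 3. In WT males it was -0.84 without the muscle-rich libraries and passed (limma adjusted p = 0.0171). Averaged over the 4, the log2 change was -0.68 ± 0.18 (limma adjusted p = 0.0017). Mpst encodes mercaptopyruvate sulfurtransferase, a cysteine-dependent source of hydrogen sulfide (chromosome 15, 78406416 to 78414013, plus strand). In WT females the AL livers held 2884, 3145, 3758, 2609 and 2431 normalized counts and the CR livers 2308, 2354, 1585, 1996 and 2101. The groups did not overlap and the log2 change was -0.52 ± 0.14 (limma adjusted p = 0.0169). Its log2 change was -0.20 in WT males, -0.24 in d3 males and 0.00 in d3 females, none past the threshold. Averaged over the 4 it was -0.24 ± 0.07 (limma adjusted p = 0.00729).

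Nnmt encodes nicotinamide N-methyltransferase, which spends SAM to methylate nicotinamide (chromosome 9, 48591877 to 48605153, minus strand). In WT males the AL livers held 4704, 6441, 1955, 9758 and 5574 normalized counts and the CR livers 2380, 1441, 1392, 1668 and 1608. A single AL liver lay below the highest CR liver, and the log2 change was -1.59 ± 0.36 (limma adjusted p = 0.00118). In d3 males the values were 5206, 5675, 5524, 3026 and 8456 under AL and 1908, 2179, 902, 1473 and 1313 under CR. The groups did not overlap and the log2 change was -1.83 ± 0.36 (limma adjusted p = 0.000257). In WT females the values were 8927, 3454, 5649, 6258 and 6315 under AL and 3280, 4033, 1732, 3019 and 2241 under CR, where 1 CR liver exceeded the lowest AL liver. The log2 change was -1.09 ± 0.36 (limma adjusted p = 0.0391), and it passed in 3 of 10 fits that left out 1 library. In d3 females the values were 7254, 7038, 6973, 3901 and 4040 under AL and 1942, 1686, 4934, 4052 and 6404 under CR, with 3 CR livers inside the AL range. The log2 change of -0.75 ± 0.36 did not pass (limma adjusted p = 0.149), and without the muscle-rich libraries it was -0.39 (adjusted p = 0.704).

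**Figure D2:**
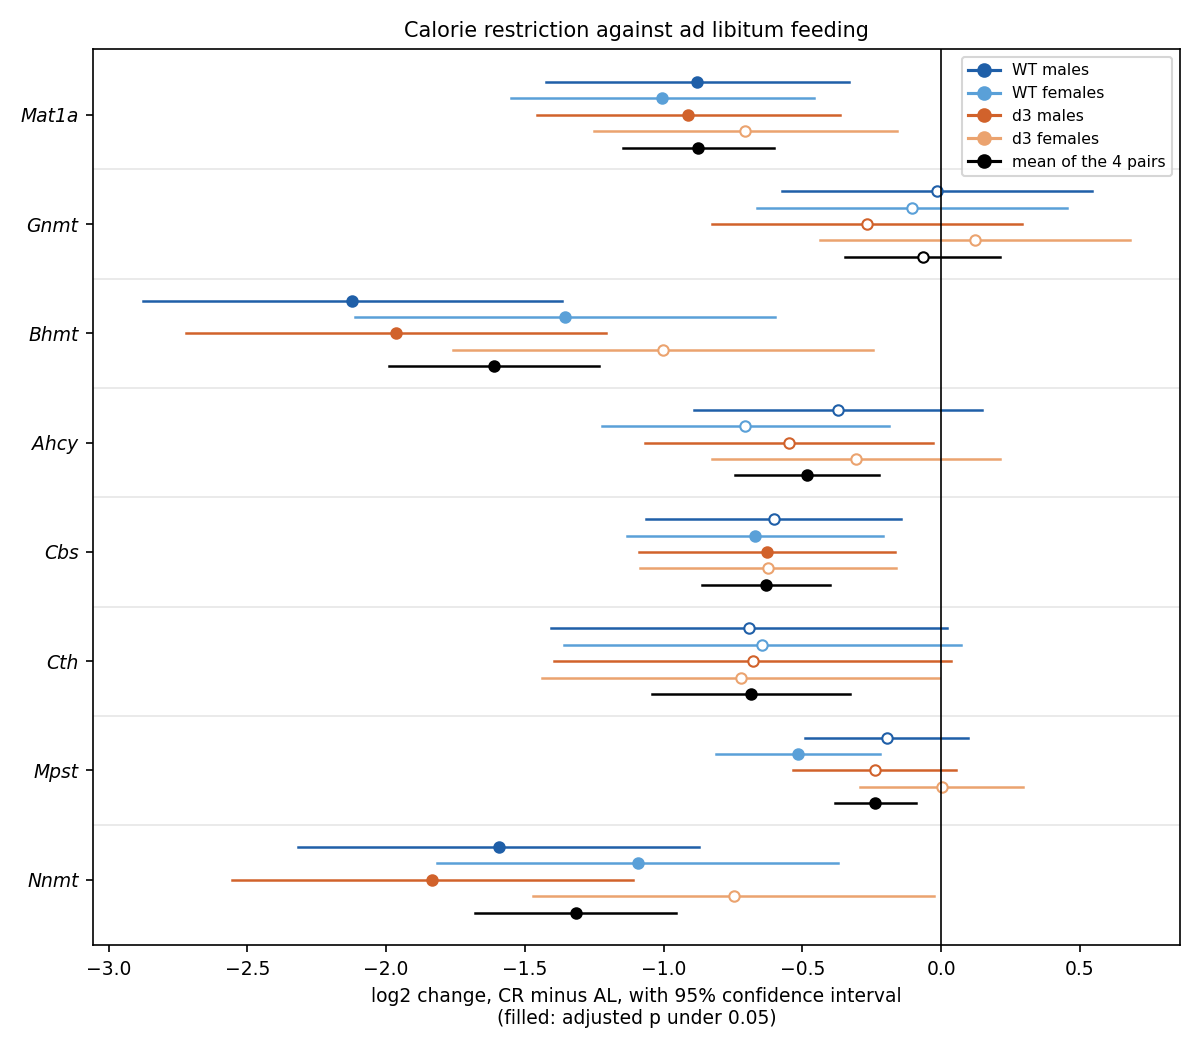
Log2 change with diet (CR minus AL, with its 95% confidence interval) of the 8 genes in the 4 comparisons and averaged over them. Filled points have a limma adjusted p under 0.05. The averaged intervals lie below 0 for 7 genes, and that of Gnmt runs from -0.35 to 0.21.

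The counts of calls depended on single libraries and on the libraries with muscle signal. Once the 17 muscle-rich libraries were left out, 4 members were called in WT males (Mat1a, Bhmt, Cth and Nnmt) and 0 in WT females. In d3 males 2 were called (Bhmt and Nnmt) and in d3 females 0. That left 3 AL and 3 CR livers in WT females, and the 17 included 3 of the 5 CR livers of each d3 group. Among all 13776 genes the calls fell too, from 2961, 1608, 2686 and 2463 to 2508, 557, 1127 and 1042 in the same order. The count of members in WT females was 0 without CR replicate 3, 2 without AL replicate 3 and 3 without AL replicate 4, AL replicate 5 or CR replicate 5. In d3 males it was 2 without AL replicate 5. In d3 females it was 4 without AL replicate 5, 2 without CR replicate 3 and 3 without CR replicate 5. Calls among all genes were not counted in the fits that left out 1 library. Such shifts are therefore not shown to be particular to the members. The averaged fall was steadier. All 7 genes were called in each of 40 fits that left out 1 library, and without the 17 libraries the averaged log2 changes of the 7 were -1.63 (Bhmt), -1.18 (Nnmt), -0.85 (Mat1a), -0.67 (Cth), -0.54 (Cbs), -0.42 (Ahcy) and -0.24 (Mpst), each past the threshold. Without the 17 libraries the averaged comparison called 4627 of all 13776 genes in either direction, against 6301 in the main fit.

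Per kilobase of the longest principal transcript, Bhmt was the most abundant member in AL livers, with group means of 88455 to 133939 normalized counts per kilobase. Mat1a followed at 65182 to 72789, and Gnmt and Ahcy overlapped at 50696 to 56918 and 51225 to 54897. Under CR Gnmt had the highest mean of the 8 genes in all 4 groups (47270 to 60970 per kilobase), ahead of Bhmt at 26010 to 45853. Cth stood at 6216 to 14995, Nnmt at 1491 to 5868, Mpst at 1180 to 1692 and Cbs at 687 to 1184 per kilobase over all 8 groups. The order of group means within a gene followed diet for 6 genes, Mat1a, Bhmt, Ahcy, Cbs, Cth and Nnmt, whose 4 AL means all exceeded their 4 CR means. The share of all genes ordered by diet in this way was not counted, so this order is not shown to be particular to the members. Among the 4 AL groups, neighbouring means in that order differed by less than the SD of either group for every member except Cth.

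The second comparison asked whether the genes differed between the sexes. Nnmt was lower in males than in females among d3 CR mice, and no other member passed in any of the 4 comparisons. The 5 d3 CR males held 902 to 2179 normalized counts and the 5 d3 CR females 1686 to 6404. The means were 1555 ± 502 and 3804 ± 2003 (SD, n = 5 each), with 2 females inside the male range, and the log2 change was -1.17 ± 0.36 (limma adjusted p = 0.0344). The call was lost in 6 of 10 fits that left out 1 library: d3 CR female replicates 3, 4 and 5 and d3 CR male replicates 3, 4 and 5. It was also lost without the muscle-rich libraries, where the log2 change was -1.5, and in a fit of those groups alone. In WT CR mice the log2 change of Nnmt was -0.72 ± 0.36 and that of Bhmt -0.75 ± 0.37, with limma adjusted p of 0.266 and 0.267. Under AL the log2 change of Nnmt was -0.22 in WT and -0.09 in d3. Averaged over the 4 comparisons Nnmt was lower in males by -0.55 ± 0.18 (limma adjusted p = 0.0221). Of all genes tested, 6.48% differed between the sexes in WT AL, 4.57% in WT CR, 6.16% in d3 AL, 8.81% in d3 CR and 23.9% in the averaged comparison.

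Whether the diet change itself differed between the sexes was tested as an interaction. The fall of Nnmt was larger in males than in females by -1.09 ± 0.50 in d3 (95% confidence interval -2.11 to -0.06), with a limma adjusted p of 0.271, and by -0.50 ± 0.50 in WT. For Bhmt the difference was -0.96 ± 0.53 in d3 and -0.77 ± 0.53 in WT, with limma adjusted p of 0.360 and 0.620. In both genotypes the point estimates of Nnmt and Bhmt were larger falls in males, but none of the 8 members passed in the sex by diet interaction of WT (0.348% of all genes) or d3 (2.09%). Unadjusted p was under 0.05 for 1 member in d3 and for 0 in WT, and for 2258 and 1547 of all 13776 genes.

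The third comparison asked what the d3 genotype did to these genes, and no member passed. In AL males, AL females, CR males and CR females the 8 log2 changes (d3 minus WT) ranged from -0.41 to 0.33. Among all genes, 0.0436% passed in AL males, 0% in AL females, 0.138% in CR males and 0% in CR females, and 0% in the averaged comparison. Unadjusted p was under 0.05 for 1 member, Mpst, in AL females and for 0 members in the other 3. Of all 13776 genes, 875 were under 0.05 in AL females, 1121 in AL males, 1106 in CR males and 1027 in CR females. Mpst in AL females held 2884, 3145, 3758, 2609 and 2431 normalized counts in WT and 2720, 2212, 2183, 2678 and 1672 in d3, which overlap, and its log2 change was -0.38 ± 0.14 (limma adjusted p = 0.775). The averaged genotype change of Mpst was -0.15 with a 95% confidence interval from -0.30 to -0.0026, and the widest of the other averaged intervals were those of Bhmt, from -0.45 to 0.31, Cth, from -0.22 to 0.49, and Nnmt, from -0.33 to 0.40. In the authors' deposited table of d3 against WT, the lowest adjusted p of a member was 0.593, again for Mpst in AL females, with a log2 fold change of -0.37. In CR males all WT title numbers were lower than all d3 numbers, so genotype there and the order of those numbers cannot be told apart.

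**Figure D3:**
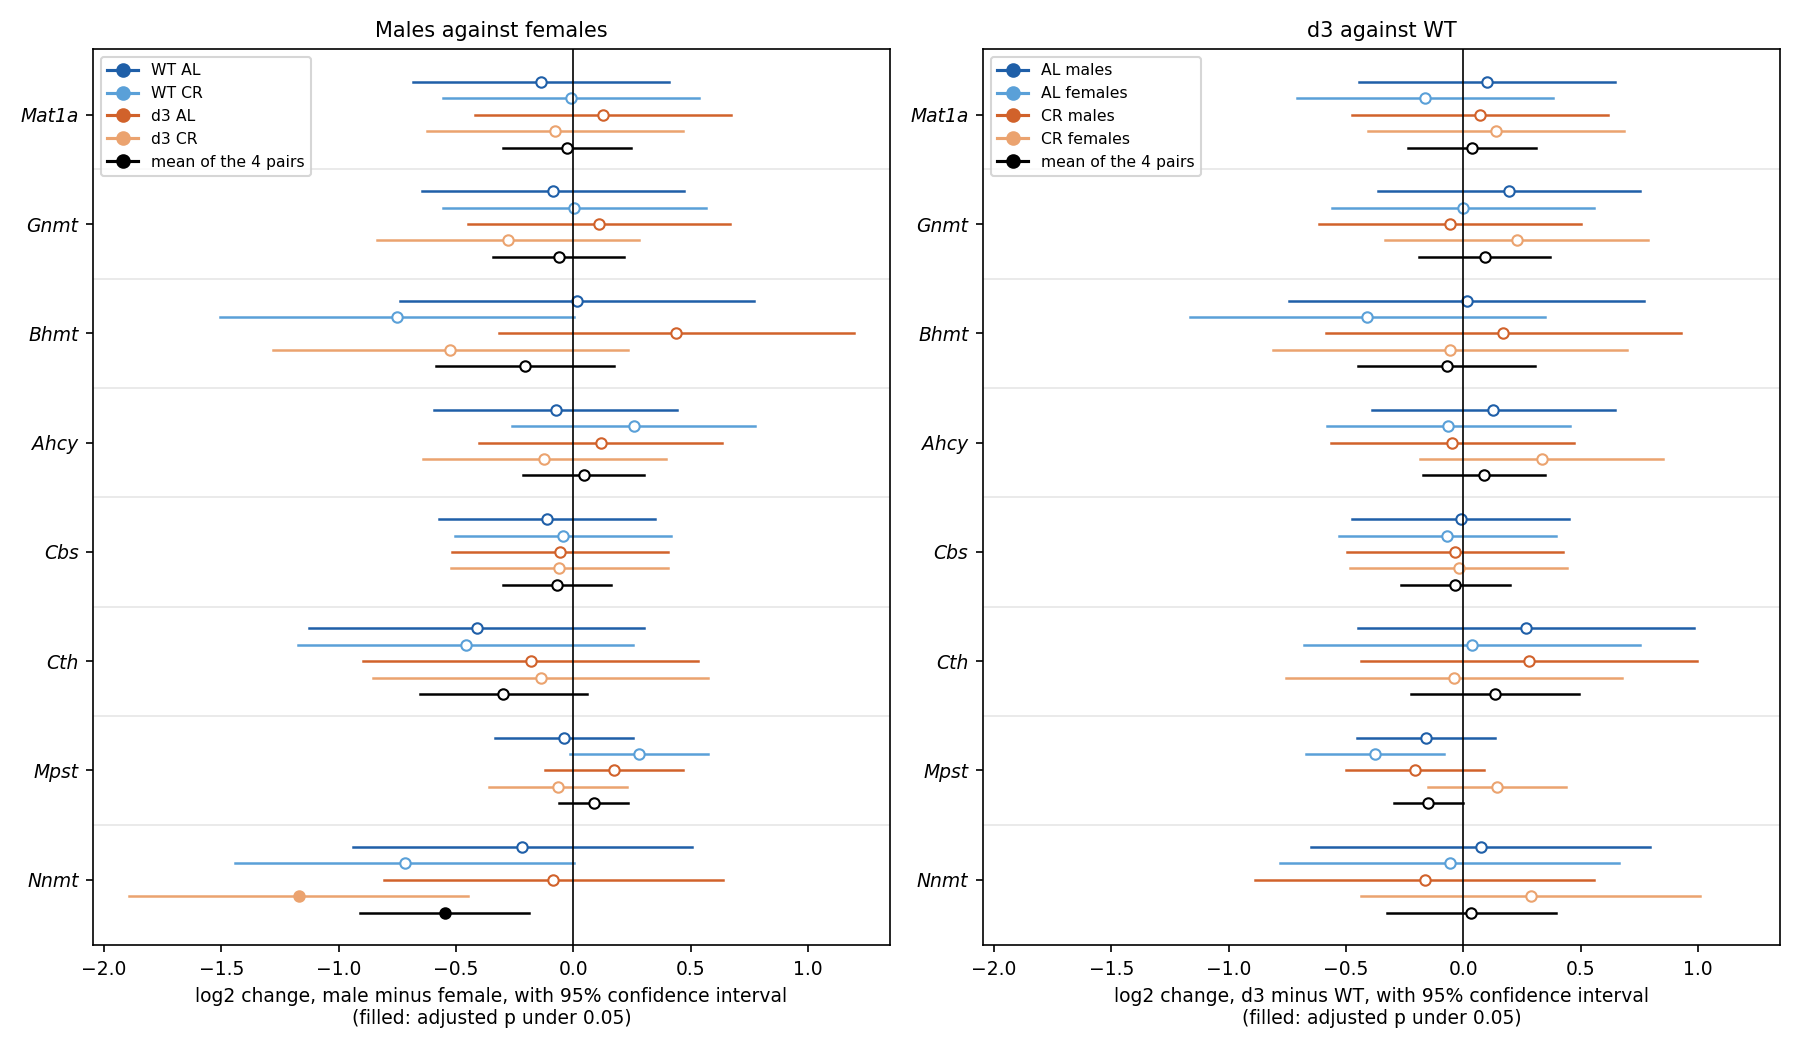
Log2 change with its 95% confidence interval of the 8 genes for males minus females (left) and d3 minus WT (right), in 4 comparisons each and averaged over them. Filled points have a limma adjusted p under 0.05, and only Nnmt reaches it, in d3 CR mice (-1.17) and in the averaged sex comparison (-0.55).

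The diet change of the members did not pass a test of difference between genotypes. The genotype by diet interaction called 0 of 8 members in males (0.0218% of all genes) and 0 of 8 in females (0% of all genes). In males unadjusted p was under 0.05 for 0 members and in females for 1, Mpst, whose diet change was higher in d3 than in WT females by 0.52 ± 0.20 (limma adjusted p = 0.316). Of all 13776 genes, 556 in males and 1527 in females had an unadjusted p under 0.05. Mpst, which fell with diet in WT females, is therefore not shown to respond differently in d3 females. The sex by genotype interactions called 0 members under AL (0% of all genes) and 0 under CR (0.0145%), and the 3-way interaction of genotype, diet and sex 0 (0.00726%), with 0 members at unadjusted p under 0.05 in these 3. Among all 13776 genes, 1056, 1555 and 1401 had an unadjusted p under 0.05 in the same order. By edgeR 0 members were called in any genotype comparison or interaction, where 0 to 24 of all genes passed by genotype and 0 to 302 by interaction. Without the muscle-rich libraries 0 members were called either. Of all genes, 0 passed there in any genotype comparison or genotype by diet interaction, and 0 to 86 in the other interactions. In that fit the log2 change of Mpst between genotypes was -0.27 in AL females and its interaction in females 0.55. There the sex by diet difference in d3 was -1.35 for Nnmt and -1.22 for Bhmt.

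Around the 8 genes, 7 lists of neighbouring pathways held 97 further genes, of which 84 were tested. Their diet changes went both ways: WT males had 20 that rose and 13 that fell, WT females 5 and 11, d3 males 15 and 13 and d3 females 8 and 11. The median log2 change of the 84 genes was 0.09, -0.07, 0.12 and 0.05 in the same order, where the members' medians lay between -0.69 and -0.65. None of the 84 passed in any of the 4 genotype comparisons. Between the sexes, 2 were higher and 1 lower in males in WT AL, 6 and 1 in WT CR, 6 and 2 in d3 AL and 6 and 3 in d3 CR. Of all genes tested, 6.48%, 4.57%, 6.16% and 8.81% differed in either direction in the same order. The lists were drawn up with earlier results of these data known, and the counts that follow include the members in each list. Those counts stand against the same diet shares of all genes.

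Among genes of transsulfuration and cysteine use, 3 to 5 of 10 tested fell in WT males, WT females and d3 males and 2 in d3 females, and none rose. Gclc, the catalytic subunit of the enzyme that starts glutathione synthesis, fell in all 4 comparisons with log2 changes from -1.0 to -0.68. Oplah, 5-oxoprolinase of the glutathione cycle, also fell in all 4, from -0.69 to -0.46, and Ggct, which releases 5-oxoproline, fell in 3, while mitochondrial aspartate aminotransferase Got2 did not pass in any, from -0.14 to 0.07. In the methionine cycle and salvage list of 18 genes, 3 or 4 fell and 1 to 5 rose. Ahcyl1, a relative of Ahcy that regulates ion transport, fell in all 4 from -0.42 to -0.31, Amd1, the adenosylmethionine decarboxylase of polyamine synthesis, rose in WT males by 0.87 ± 0.21 and in d3 males by 0.61 ± 0.21, and Bhmt2, a paralogue of Bhmt that uses S-methylmethionine, did not pass in any, from -0.46 to -0.24. Averaged over the 4 comparisons Bhmt2 did pass, with a log2 change of -0.34 ± 0.10 (limma adjusted p = 0.00672).

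Among the small-molecule methyltransferases Nnmt stood opposite to several genes that rose. Inmt, indolethylamine N-methyltransferase, rose in all 4 comparisons with log2 changes from 1.36 to 2.71. Gamt, the last enzyme of creatine synthesis, rose in 3 of 4, from 0.77 to 1.51 over all 4, Hnmt, which inactivates histamine, in 3, from 0.67 to 1.05, and Pemt, which makes phosphatidylcholine with SAM, in 3, from 0.15 to 0.74. Of the 11 tested genes of this list, 2 to 4 rose and 0 or 1 fell in each comparison, and the gene that fell was Nnmt. Averaged over the 4 comparisons, 6 rose and 3 fell. Those that fell were Nnmt, Tpmt at -0.39 (limma adjusted p = 0.0106) and Mettl7b at -0.21 (limma adjusted p = 0.0443). In the folate cycle Fpgs, which retains folate in the cell, fell in all 4 from -1.35 to -0.99, and 0 to 3 of 16 genes were higher. Of 11 genes of choline, betaine and glycine oxidation, 1 fell in each male comparison, Amt of the glycine cleavage system, and Sardh, sarcosine dehydrogenase downstream of Gnmt, did not pass in any, from -0.01 to 0.19.

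In the hydrogen sulfide and persulfide list of 12 genes, 2 or 3 fell and 0 to 3 rose in each comparison. Suox, the sulfite oxidase at the end of sulfur oxidation, fell in all 4, from -0.88 to -0.66, and the thioredoxin reductase gene Txnrd1 fell in 3. Selenbp2 fell in males, with log2 changes of -3.58 ± 0.59 in WT and -5.64 ± 0.59 in d3, while its near-identical neighbour Selenbp1, a methanethiol oxidase in human, rose in males by 1.07 ± 0.24 and 0.99 ± 0.24, and reads of these similar genes may have been shared between them by the authors' estimation. In the nicotinamide and NAD list of 15 genes, 2 to 4 fell and 2 to 5 rose. Next to Nnmt, Nampt, the salvage enzyme that competes for nicotinamide, rose in WT males by 1.14 ± 0.15, in d3 males by 1.2 ± 0.15 and in WT females by 0.46 ± 0.15, and Nmrk1, nicotinamide riboside kinase, rose in all 4 from 0.78 to 0.99. Kynu, kynureninase of the tryptophan route, fell in all 4 from -1.05 to -0.83.

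**Figure D4:**
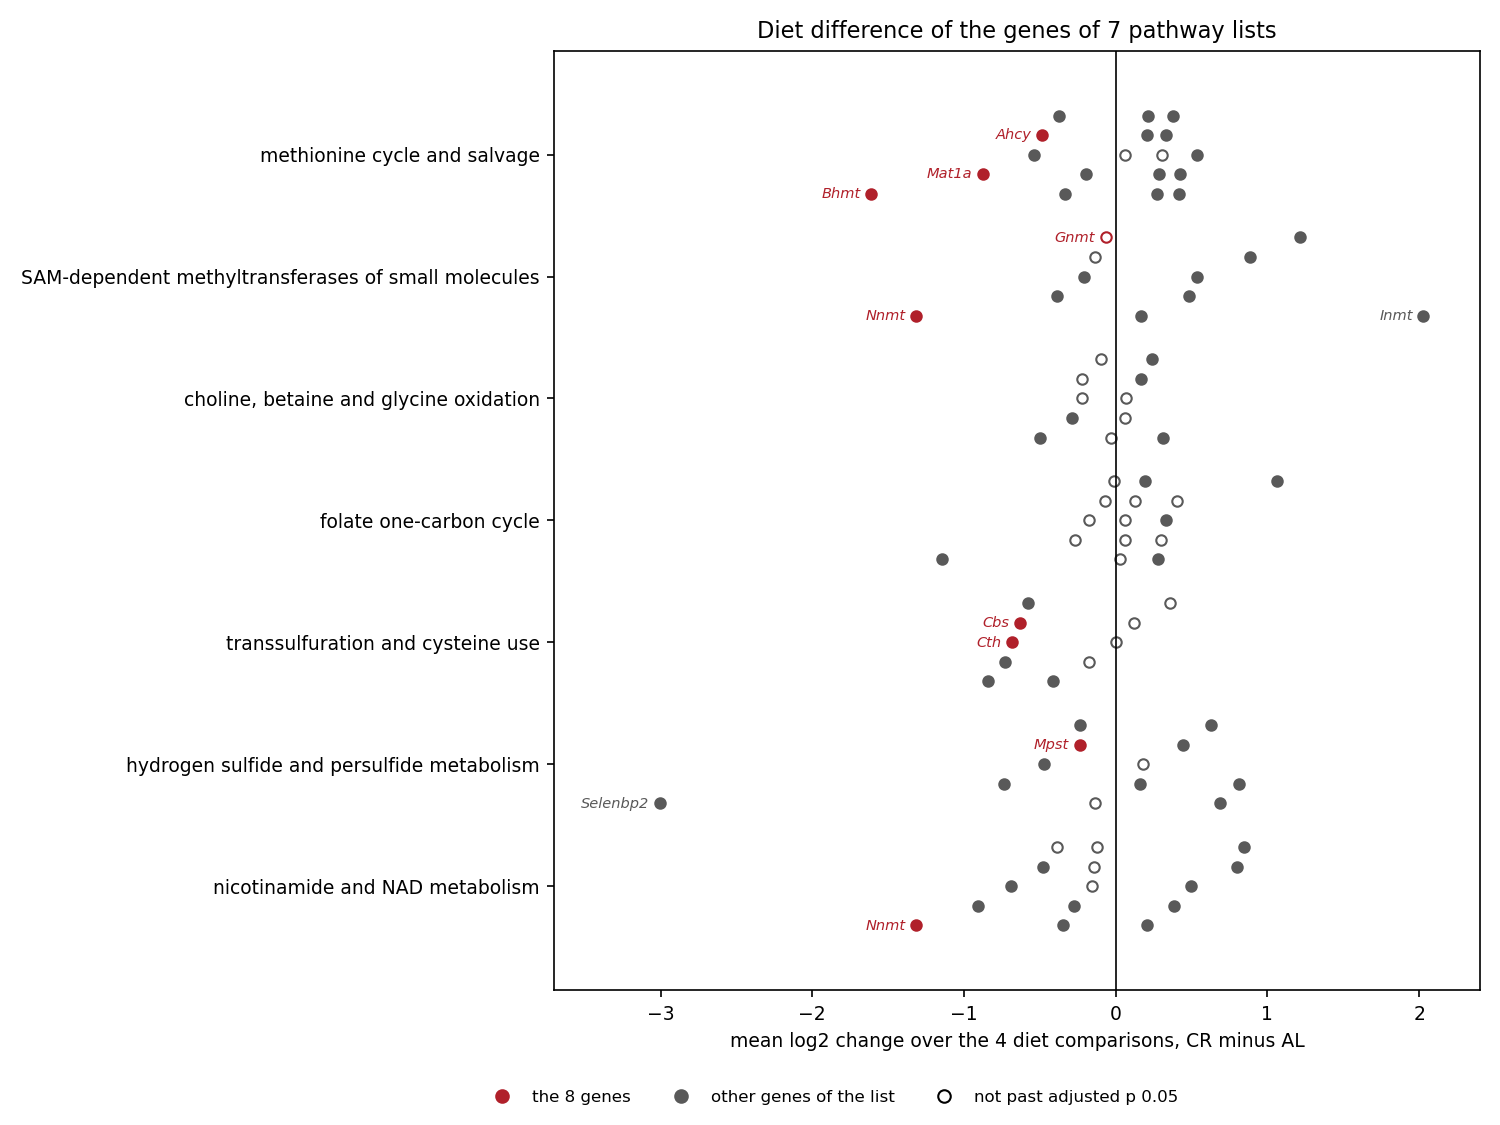
Log2 change with diet averaged over the 4 comparisons for tested genes of 7 pathway lists, with members in red and other genes in grey and filled points past a limma adjusted p of 0.05. Cbs and Cth lie among falling genes of the transsulfuration list, and Nnmt lies opposite to Inmt among the methyltransferases.

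The 8 genes also varied together among livers of the same diet, taken over both sexes and genotypes. Within the 20 AL livers the correlation of log2 levels was positive for 27 of 28 pairs of members, with a median Pearson r of 0.55, and within the 20 CR livers for 28 of 28, with a median of 0.66. The closest pair was Mat1a with Ahcy at 0.88 under AL and 0.95 under CR, and the least alike Mpst with Nnmt at -0.03 and 0.18. These values describe the libraries, which also differ in depth, cell content and sex and genotype group. The correlation of other gene pairs was not computed, so varying together is not shown to be particular to these 8 genes.

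A few livers stood apart for most members at once. WT CR female replicate 3 was the lowest of its group for 8 of 8 members, with a median deviation of -0.73 log2 units from its group means. It also had 3.27% of its signal in muscle markers, and its hepatocyte markers made up 7.28%, the lowest of its group. The lowest of the d3 CR females for 7 members was replicate 2 (-0.83), with 7.61% muscle and 6.75% hepatocyte signal, while replicate 5 of that group was the highest for 6 (0.69), with 0.791% muscle signal. The lowest of the d3 AL females for 7 members was replicate 5 (-0.67), with 10.4% hepatocyte signal. WT AL male replicate 3 was the lowest for 6 (-0.60), with 0.00057% muscle signal and 7.49% hepatocyte signal, the lowest of its group. WT CR male replicate 3 was also the lowest for 6 (-0.28), with 1.49% muscle and 10.1% hepatocyte signal. WT CR female replicate 2 was the highest of its group for 7 (0.38) and WT AL male replicate 2 for 6 (0.53), with 0.00068% and 0.00053% muscle signal. The part of cell content in these deviations was not tested.

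**Figure D5:**
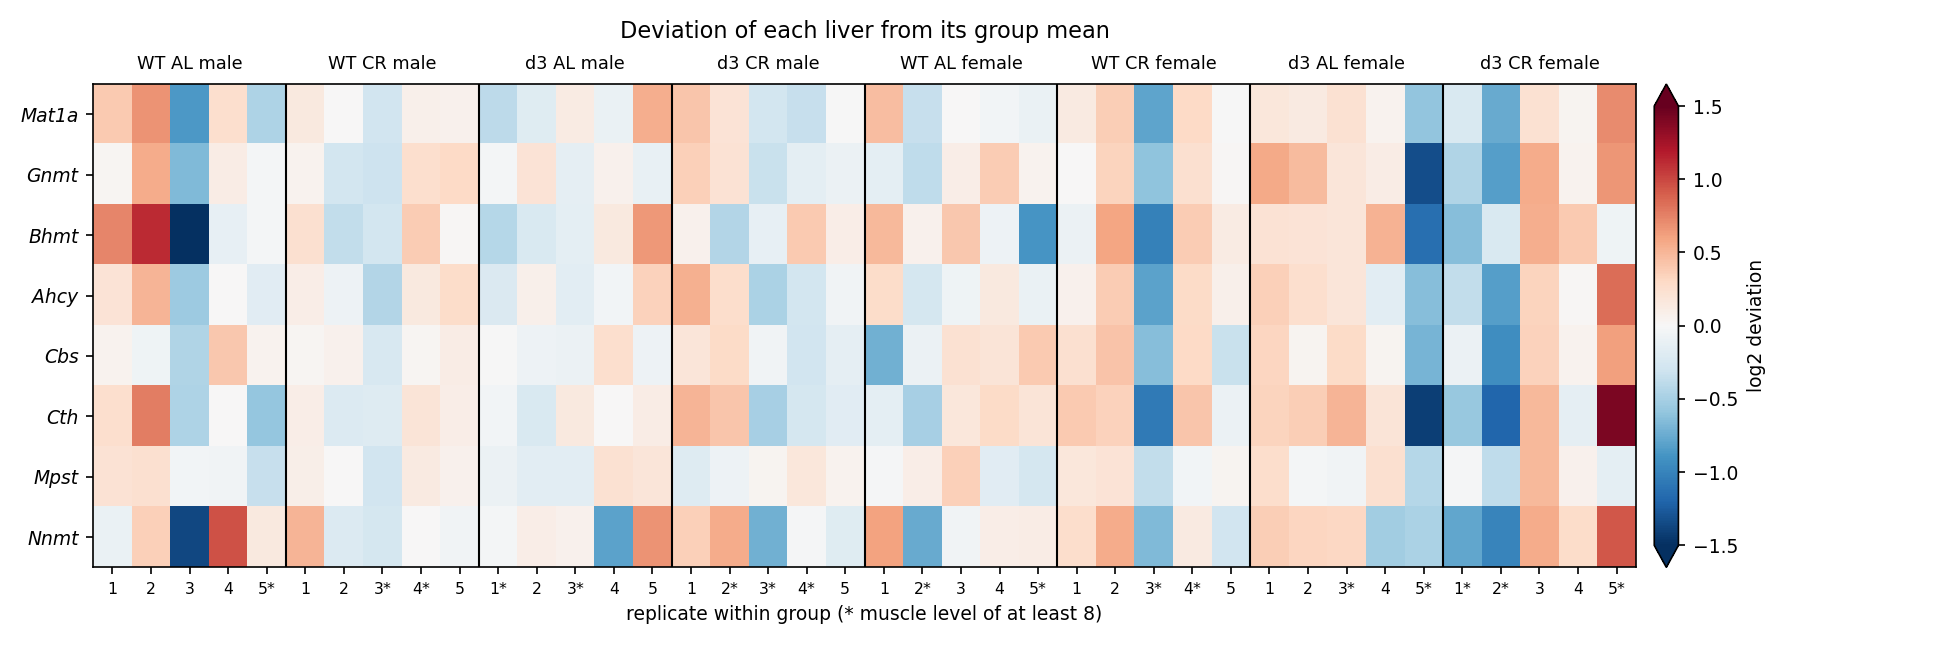
Deviation of each of the 40 livers from its own group mean, in log2 units, for the 8 genes, with groups separated by black lines and an asterisk for a muscle level of at least 8. The columns of WT CR female replicate 3, d3 AL female replicate 5 and d3 CR female replicate 2 are blue for all 8 genes, with median deviations of -0.73, -0.67 and -0.83. WT AL male replicate 3 (-0.60), which has no asterisk, and WT CR male replicate 3 (-0.28) also lie below their group means for all 8. The same holds for d3 CR female replicate 1 (-0.41) and d3 AL male replicate 1 (-0.06).

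Among the 13776 genes tested, those most like each member over the 40 libraries included enzymes of amino acid breakdown and the urea cycle. Genes with the names of predicted genes and the other members were left out of this ranking. The 40 libraries differ in diet, depth and cell content, and no p is given. Mat1a and Ahcy were both closest to Asl, argininosuccinate lyase (Pearson r = 0.93 each, and at least 0.89 within each diet). Gnmt was closest to Ass1, argininosuccinate synthase (0.93), and to the glutaminase Gls2 (0.88). Cth was closest to Hal, histidine ammonia-lyase (0.87), and to Hgd and Hpd of tyrosine breakdown (0.85 each). Bhmt was closest to Fpgs (0.91 over all libraries, 0.78 within AL and 0.70 within CR), Cbs to Slco2a1 (0.89), Mpst to Ociad1 (0.86) and Nnmt to Lbp, the lipopolysaccharide binding protein gene (0.88, 0.65 within AL and 0.78 within CR). Ranking by Spearman's rho kept 3 of the 3 closest genes for Ahcy, 2 for Mat1a and Gnmt and 1 for each other member.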

How the data were processed

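Liver RNA-seq of 40 mice (8 groups of 5) was analysed. FastQC, MultiQC, Trimmomatic, kallisto, DESeq2 and GRCm38 are named without versions in the submitters' processing notes. The deposited signal is normalized read depth per gene, per the file headers, and its low values are whole multiples of 1 step per library, as counts divided by a library factor would be. Whole reads were recovered on that basis (100% whole within 0.01) and used only for edgeR, which called 1573 to 2974 genes in the 4 diet comparisons. After 115 duplicate rows were dropped, 17724 genes remained, and 13776 with a mean of at least 10 were tested. Log2(value + 1) of the deposited values was fitted in limma 3.58.1 (R 4.3.3) with 8 groups in 1 fit, residual degrees of freedom 32, Benjamini-Hochberg threshold 0.05. Contrasts averaged over the 4 pairs were added after seeing the data. The deposited log2 fold changes and adjusted p-values are the authors' own. Alternatives were a pseudocount of 10, no filter, extra median-of-ratios scaling, library weights, edgeR 4.0.16, the 2 groups alone, exclusion of 17 muscle-rich libraries, a muscle covariate and leaving out each library. The script was tested on simulated data. The members, lists and named pathway genes (from each list up to 4 called in the most pairs, ties by size of change, and the most abundant uncalled gene) were chosen with earlier results of these data known. The labels do not say whether samples of a group share a litter, so p-values measure the spread between these samples. A gene of the pathway lists is not reported here.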

Additional observations from a re-analysis of the deposited data

Results flagged for a closer look

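Of 64 gene and group combinations with 5 livers each, 5 held a liver far from the other 4, and chance gives about 1 in 20. In d3 AL females replicate 5 was low for Mat1a (147573 normalized counts, where the other 4 held 229993 to 260115) and for Cth (9287, against 28373 to 35246). In WT CR males replicate 3 was low for Cbs (3656, against 4437 to 4668) and replicate 1 was high for Nnmt (2380, against 1392 to 1668). In d3 AL males replicate 4 was high for Cbs (7756, against 6160 to 6489).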

How the results depend on the processing

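The 7 genes lower under restriction in the averaged comparison were called under all 7 alternatives run for it. Of all 13776 genes, in either direction, the main fit called 6301 there. The alternatives called from 4627 without the muscle-rich libraries to 6980 with library weights, and all genes were not counted in the fit with no filter. Counts for single pairs moved more. With library weights the members called were 5 in WT males, 5 in d3 females and 1 in the WT CR sex comparison. That setting raised the calls among all 13776 genes too, from 2961 to 3749, 2463 to 2999 and 630 to 1759 in the same order. Without the muscle-rich libraries the members called were 0 in WT females, 2 in d3 males, 0 in the d3 CR sex comparison and 2 in the averaged sex comparison (Cth and Nnmt). Among all genes the calls there were 557, 1127, 981 and 3149, against 1608, 2686, 1213 and 3289 in the main fit. With the compared groups alone 1 member was called in WT females and 0 in the d3 CR sex comparison, where 978 and 100 of all genes were called. By edgeR 1 member was called in d3 females, where 2705 of all genes were called. Leaving out 1 library gave 0 to 6 in WT females, 2 to 4 in d3 males, 0 to 4 in d3 females and 0 to 1 in the d3 CR sex comparison. Calls among all genes were not counted in those fits. Changes near 0 turned sign: Gnmt in WT males to 0.057 with a muscle covariate (-0.18 to 0.12 leaving out 1 library), in WT females to 0.045 with library weights (-0.20 to 0.045) and in d3 females to -0.26 (-0.21 to 0.33), and Mpst in d3 females to -0.074 with library weights (-0.12 to 0.10). The cause was not tested. No paired analysis was possible because the replicate numbers are accession order and pair no samples.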
